A study of Mus musculus with 14 samples.

Results

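Genes of cell division were examined in the left ventricle after aortic banding (AB) or a Sham operation, in WT mice and in mice without the chemokine receptor CXCR5 (CXCR5-/-). The list held 42 genes with known roles in copying DNA (S phase, 13 genes) or in dividing the cell (mitosis, 29 genes), and each was read from 1 probe set, the one listed with that symbol alone and with the highest mean over the 14 arrays. Of the 42 genes, 41 were measured this way among 19937 genes on the array, namely all 13 of S phase and 28 of mitosis. Ccnb1 had no probe set listed with its symbol alone and was not analysed here. AB raised 13 of the 41 genes in WT and 22 in CXCR5-/- hearts, most of them genes of mitosis, where 5.1% and 8.28% of all genes rose. Cenpf, a gene of mitosis, fell in both.

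Both genotypes were represented by 3 Sham and 4 AB mice, with 1 array per mouse and 14 arrays in all. All mice were male, and WT mice were C57BL/6. CXCR5-/- mice came from D3 embryonic stem cells, in which a neomycin resistance gene took the place of the Cxcr5 coding region, and were then crossed back to C57BL/6. They lacked the receptor in every cell type, so the genotype does not single out a cell. AB was a ligature around the ascending aorta, which loads the left ventricle with pressure, Sham mice had the operation without the ligature, and tissue was taken 3 weeks later. Ages are not stated in the sources, and banded mice entered the study only if flow across the band was fast enough.

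A dividing cell first copies its DNA and then, in mitosis, separates the copies. Genes of the S phase, such as those of the MCM helicase that opens the double helix and of the enzymes that make nucleotides, are switched on by E2F factors. Genes of mitosis, such as cyclins, spindle motors and checkpoint kinases, are held down in resting cells by the DREAM complex and switched on late in the cycle by a complex of MuvB with B-Myb and Foxm1, which reads a short promoter element called the CHR, often beside a CCAAT box. In the adult heart most cardiomyocytes have left the cell cycle and many of them can copy DNA or divide their nuclei without dividing the cell, while fibroblasts, endothelial cells and macrophages can divide, and fibroblasts and macrophages become more numerous under pressure overload.

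Promoters are shown because genes of mitosis are known to share promoter elements that S phase genes mostly lack. RefSeq windows on GRCm38.p6 were matched for 35 of the 41 genes, each covering 250 bases before the transcription start and 50 after it. Ccne2, Mcm4, Ccna2, Aurkb, Kif20a and Tpx2 had no match. Searches on both strands used the letters TTTGAA for the CHR, CCAAT for the CCAAT box, and for E2F the letters TTCCCGC, or TTGGCGC instead, or else TTCGCGC, or lastly TTGCCGC, and matches may share bases. The CHR letters lay in 17 of 24 mitosis promoters (70.8%), in 2 of 11 S phase promoters (18.2%) and in 17.9% of all 32851 windows. The E2F letters showed the reverse, with 3 of 24 mitosis promoters (12.5%), 7 of 11 S phase promoters (63.6%) and 9.57% of all windows. CCAAT boxes were common in both classes, in 17 of 24 (70.8%) and 9 of 11 (81.8%) against 37.4% of all windows. The CHR and a CCAAT box stood together in 15 of 24 mitosis promoters (62.5%) and in 6.95% of all windows. A match is a description of the letters and not of a bound factor.

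The 5 genes picked by small adjusted p were Mad2l1, Anln and Prc1 of mitosis and Rrm2 and Tyms of the S phase. Mad2l1, Anln and Tyms held none of the searched letters in the 250 bases before the start and are not printed, although Anln holds CHR letters after its start. Prc1 and Rrm2 are printed, and Top2a, Mki67 and Mcm6 were added, after the motifs had been counted, as genes that hold matches. The 250 bases before the start are printed from 5′ to 3′ on the gene's strand, and the capitals mark the letters of a CHR (the letters above or, where the match is on the other strand, their complement), a CCAAT box or an E2F match.
Prc1, mitosis, chr7:80294226-80294475, plus strand: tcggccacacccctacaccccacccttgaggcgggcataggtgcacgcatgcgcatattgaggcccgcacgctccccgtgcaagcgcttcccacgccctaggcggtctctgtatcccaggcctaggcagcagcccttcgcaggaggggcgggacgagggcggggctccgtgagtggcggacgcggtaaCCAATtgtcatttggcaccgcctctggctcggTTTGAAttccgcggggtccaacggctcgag
Top2a, mitosis, chr11:99024190-99024439, minus strand: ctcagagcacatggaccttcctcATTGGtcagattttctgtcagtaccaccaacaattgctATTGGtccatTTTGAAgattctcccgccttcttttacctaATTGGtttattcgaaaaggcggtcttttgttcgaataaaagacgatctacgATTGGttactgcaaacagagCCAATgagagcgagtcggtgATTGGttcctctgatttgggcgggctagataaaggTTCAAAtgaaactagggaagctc
Mki67, mitosis, chr7:135716380-135716629, minus strand: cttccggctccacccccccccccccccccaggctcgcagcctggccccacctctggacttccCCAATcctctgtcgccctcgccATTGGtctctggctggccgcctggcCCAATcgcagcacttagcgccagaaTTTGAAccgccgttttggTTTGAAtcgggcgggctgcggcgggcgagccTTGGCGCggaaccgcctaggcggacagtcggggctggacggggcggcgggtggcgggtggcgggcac
Rrm2, S phase, chr12:24708004-24708253, plus strand: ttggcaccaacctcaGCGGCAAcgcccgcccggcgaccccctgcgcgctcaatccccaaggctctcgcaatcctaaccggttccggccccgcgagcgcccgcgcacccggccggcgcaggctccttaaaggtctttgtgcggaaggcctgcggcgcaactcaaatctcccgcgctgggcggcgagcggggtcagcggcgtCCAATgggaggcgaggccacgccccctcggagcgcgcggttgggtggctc
Mcm6, S phase, chr1:128359706-128359955, minus strand: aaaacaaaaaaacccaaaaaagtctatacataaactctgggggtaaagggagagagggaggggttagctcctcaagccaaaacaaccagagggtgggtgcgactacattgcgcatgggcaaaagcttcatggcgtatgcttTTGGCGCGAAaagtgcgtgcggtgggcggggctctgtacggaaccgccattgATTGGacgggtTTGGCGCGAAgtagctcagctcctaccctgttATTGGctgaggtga
The CHR of Prc1 begins 30 bases before the start and its CCAAT box 62 bases before it. Top2a holds 6 CCAAT boxes and 2 CHR matches, and Mki67 holds 3 CCAAT boxes, 2 CHR matches and 1 E2F match. Rrm2 holds an E2F match and a CCAAT box but no CHR, and the 4 overlapping E2F matches of Mcm6 form 2 stretches beside 2 CCAAT boxes. Among mitosis genes with the CHR letters, 8 of 17 rose in WT hearts and 13 in CXCR5-/- hearts. Among those without them 2 and 3 of 7 did, and over all genes 5.1% and 8.28% rose. The median log2 changes with and without the letters were close, at 0.42 and 0.35 in WT and 0.55 and 0.49 in CXCR5-/- hearts. Ccna2, Aurkb, Kif20a and Tpx2, which had no matched window, are in neither count. A tie between the CHR and the rise was not tested. Cenpf holds both a CHR and a CCAAT box and fell.

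Array medians lay between 5.19 and 5.30 on the log2 scale, and arrays correlated at 0.975 to 0.993. The Cxcr5 probe set read 3.03 to 3.30 on the 7 WT arrays and 3.85 to 4.47 on the 7 arrays labelled CXCR5-/-, all higher. Since the position of this probe set relative to the replaced sequence is not known, it does not check the labels. All 8 cardiomyocyte markers were measured, with Atp2a2, the calcium pump of heart muscle, at group means of 12.41 to 12.73. Myl7, a light chain of atrial muscle, stood at 9.09 on WT Sham replicate 1 and at 9.68 and 8.82 on CXCR5-/- Sham replicates 1 and 2, against 5.65 to 7.49 on the other 11 arrays, so counts of calls after AB are also given without these 3 arrays. The members were mostly dim, with mean log2 levels of 3.55 to 9.02 and 34 of 41 below the median gene at 5.74. The 7 dimmest (Ccne2, Bub1, Ttk, Kif11, Kif4, Cenpe and Nusap1) lay below 4.55, the 95th percentile of 1027 olfactory receptor genes, which are mostly silent in the heart, and of these 1 rose in WT and 3 in CXCR5-/- hearts. Apart from this check of dim signals, levels are compared between arrays for each probe set and not between genes.

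The first comparison asked what pressure overload did in WT hearts. Of 28 mitosis genes, 12 rose and Cenpf fell, while of 13 S phase genes only Tyms rose. Over all genes 5.1% rose and 4.22% fell, 9.32% together. The median log2 change was 0.39 for mitosis genes, 0.14 for S phase genes and 0.01 for all genes, and 39 of the 41 members had a change above 0. In CXCR5-/- hearts 19 of 28 mitosis genes rose and Cenpf fell, and Mcm6, Rrm2 and Tyms rose among the 13 S phase genes, where 8.28% of all genes rose and 5.86% fell, 14.1% together. The median log2 changes were then 0.54 for mitosis genes, 0.20 for S phase genes and -0.01 for all genes, and 40 of 41 members were above 0. In bulk tissue more dividing cells and more of these transcripts per cell cannot be told apart.

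Each of the 14 genes called in WT hearts was also called in CXCR5-/- hearts in the same direction. The 13 that rose in both were Tyms of the S phase and, of mitosis, Mki67, Top2a, Ccna2, Ccnb2, Bub1b, Mad2l1, Kif11, Kif23, Nuf2, Prc1, Tpx2 and Anln, and 4.27% of all genes rose in both, while 3.49% fell in both as Cenpf did. Another 9 passed in CXCR5-/- hearts alone, namely Mcm6, Rrm2, Cdk1, Plk1, Aurka, Bub1, Kif20a, Kif4 and Ect2, all of them higher, and 4.0% of all genes rose in CXCR5-/- hearts without passing in WT. The remaining 18 passed in neither. For 13 members all 8 AB arrays lay above all 6 Sham arrays, which held for 5.45% of all genes.

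**Figure D1:**
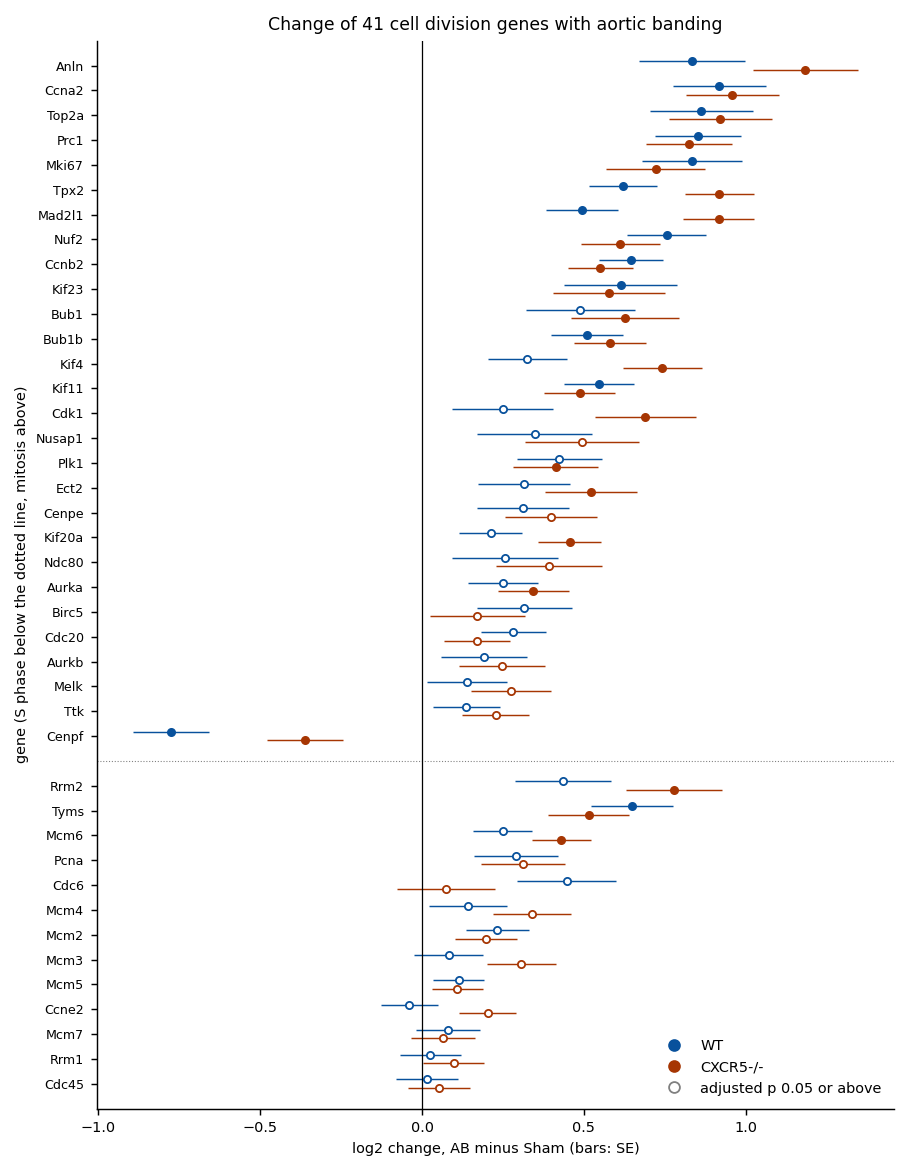
Log2 change with AB (AB minus Sham) of the 41 genes in WT (blue) and CXCR5-/- (brown) hearts, with bars for 1 SE and filled points for an adjusted p under 0.05. Mitosis genes above the dotted line reach 0.92 in WT and 1.18 in CXCR5-/- hearts, S phase genes below it reach 0.65 and 0.78, and Cenpf lies on the left in both.

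Among the general markers of dividing cells, Mki67, a protein that coats mitotic chromosomes, read 4.66, 5.21 and 4.86 in WT Sham and 5.96, 5.85, 5.80 and 5.37 in WT AB. In CXCR5-/- hearts it read 5.21, 5.12 and 5.04 in Sham and 5.86, 5.87, 6.11 and 5.53 in AB. Every AB array was above every Sham array in both genotypes. The log2 change was 0.83 ± 0.15 (SE) in WT (1.78-fold, adjusted p = 0.00201) and 0.72 ± 0.15 in CXCR5-/- hearts (1.65-fold, adjusted p = 0.00377). Top2a, the topoisomerase that untangles the chromosomes, was nearly level over the Sham arrays, at 4.49, 4.43 and 4.49 in WT and 4.47, 4.57 and 4.57 in CXCR5-/- hearts. After AB it read 5.75, 5.52, 5.20 and 4.86 in WT and 5.38, 5.62, 5.62 and 5.21 in CXCR5-/- hearts. The AB arrays all lay above the Sham arrays, yet the WT AB arrays differed among themselves by about as much as the whole change, with replicate 4 nearest to Sham. Its log2 change was 0.86 ± 0.16 in WT (adjusted p = 0.00195) and 0.92 ± 0.16 in CXCR5-/- hearts (adjusted p = 0.000699). A second probe set of Top2a read near the bottom of the scale, and its group means differed by 0.29 in WT and -0.17 in CXCR5-/- hearts.

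Cyclins and the kinase they drive come next. Ccna2, cyclin A2, which acts in S phase and at entry into mitosis, read 4.72, 4.47 and 4.43 in WT Sham and 5.72, 5.60, 5.47 and 5.04 in WT AB. Its CXCR5-/- values were 4.70, 4.92 and 4.77 after Sham and 5.61, 5.81, 6.01 and 5.60 after AB. The groups did not overlap, and the lowest AB array was again WT replicate 4. Its log2 change was 0.92 ± 0.14 in WT (1.89-fold, adjusted p = 0.000532) and 0.96 ± 0.14 in CXCR5-/- hearts (1.94-fold, adjusted p = 0.000199). Ccnb2, cyclin B2, rose by 0.64 and 0.55 on the log2 scale (adjusted p = 0.000469 and 0.00098). Cdk1, the kinase bound by both cyclins, had a log2 change of 0.25 ± 0.16 in WT, which did not pass (adjusted p = 0.401), and of 0.69 ± 0.16 in CXCR5-/- hearts, which did (adjusted p = 0.00547). The difference of the 2 Cdk1 responses was 0.44 (95% interval -0.02 to 0.90) and did not pass.

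Of the mitotic kinases, Plk1 had log2 changes of 0.42 (adjusted p = 0.0508) and 0.41 (adjusted p = 0.0427), nearly the same size on either side of the threshold, and Aurka changed by 0.25 in WT and rose by 0.34 in CXCR5-/- hearts (adjusted p = 0.191 and 0.0434). Aurkb, Melk and Ttk passed in neither genotype, with log2 changes of 0.14 to 0.27. Cdc20, which activates the ligase that ends mitosis, and Birc5, the partner of Aurkb known as survivin, also passed in neither.

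Of the spindle checkpoint, Mad2l1, which holds back anaphase until chromosomes are attached, read 6.19, 6.03 and 5.93 in WT Sham and 6.52, 6.68, 6.67 and 6.30 in WT AB. The CXCR5-/- Sham arrays read 5.96, 5.96 and 6.07, and the CXCR5-/- AB arrays read 6.82, 7.14, 6.87 and 6.82. All 4 CXCR5-/- AB arrays lay above all 4 WT AB arrays, which in turn lay above all Sham arrays. AB changed its log2 level by 0.49 ± 0.11 in WT (1.41-fold, adjusted p = 0.00822) and 0.92 ± 0.11 in CXCR5-/- hearts (1.89-fold, adjusted p = 2.72e-05). Without WT Sham replicate 3 the WT change no longer passed (adjusted p = 0.0573). Bub1b, a checkpoint kinase of the same complex, rose by 0.51 and 0.58 on the log2 scale (adjusted p = 0.00711 and 0.00169), and Bub1 had changes of 0.49 (adjusted p = 0.0804) and 0.63 (adjusted p = 0.017).

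Spindle genes held the smallest adjusted p of all members. Tpx2, which builds microtubules around chromosomes and activates Aurka, read 4.64, 4.53 and 4.71 in WT Sham and 5.23, 5.37, 5.13 and 5.26 in WT AB. Among CXCR5-/- mice the Sham arrays gave 4.50, 4.61 and 4.66 and the AB arrays 5.32, 5.38, 5.75 and 5.59. No Sham array reached the lowest AB array. The log2 change was 0.62 ± 0.11 in WT (1.54-fold, adjusted p = 0.0011) and 0.92 ± 0.11 in CXCR5-/- hearts (1.89-fold, adjusted p = 1.76e-05). Of the motors, Kif11, which pushes the spindle poles apart, rose by 0.55 and 0.49 on the log2 scale (adjusted p = 0.00339 and 0.00513), and Kif23, of the midzone, by 0.61 and 0.58 (adjusted p = 0.0333 and 0.0328). Kif4 had changes of 0.33 (adjusted p = 0.116) and 0.74 (adjusted p = 0.000483), and Kif20a of 0.21 (adjusted p = 0.219) and 0.46 (adjusted p = 0.00378). Nusap1 and Cenpe passed in neither genotype.

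Kinetochore genes went both ways. Nuf2, of the complex that grips microtubules, rose by 0.76 and 0.61 on the log2 scale (adjusted p = 0.000639 and 0.00205), whereas Ndc80, its partner in that complex, had changes of 0.26 and 0.39 that did not pass (adjusted p = 0.413 and 0.134), and the WT change was 0.051 without WT Sham replicate 3. Cenpf, a large kinetochore protein, read 5.53, 5.35 and 5.72 in WT Sham and 4.92, 4.89, 4.66 and 4.57 in WT AB. In CXCR5-/- hearts it read 5.13, 5.46 and 5.16 in Sham and 4.89, 4.94, 4.98 and 4.75 in AB. It was the only member for which all 8 AB arrays lay below all 6 Sham arrays, which held for 3.96% of all genes. AB changed its log2 level by -0.78 ± 0.12 in WT (adjusted p = 0.000421) and -0.36 ± 0.12 in CXCR5-/- hearts (adjusted p = 0.0486). The call in CXCR5-/- hearts was lost when any 1 of 10 of the 14 arrays was left out.

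Genes of the last step, the parting of the daughter cells, included the largest change. Anln, anillin, the scaffold of the contractile ring, read 4.12, 4.14 and 3.99 in WT Sham and 5.34, 5.0, 4.61 and 4.70 in WT AB. Its CXCR5-/- values were 4.03, 4.26 and 3.75 after Sham and 5.20, 5.38, 5.34 and 4.87 after AB. AB and Sham arrays did not overlap. The log2 change was 0.83 ± 0.16 in WT (1.78-fold, adjusted p = 0.00308) and 1.18 ± 0.16 in CXCR5-/- hearts (2.27-fold, adjusted p = 9.32e-05), the latter the largest of any member. Prc1, which bundles the midzone microtubules, read 4.12, 4.11 and 4.23 in WT Sham and 5.18, 5.29, 4.71 and 4.85 in WT AB. The CXCR5-/- Sham arrays read 4.59, 4.49 and 4.35, and the CXCR5-/- AB arrays read 5.33, 5.20, 5.55 and 5.12. It rose in both genotypes, and the CXCR5-/- Sham arrays all lay above the WT Sham arrays. AB changed its log2 level by 0.85 ± 0.13 in WT (1.80-fold, adjusted p = 0.000529) and 0.82 ± 0.13 in CXCR5-/- hearts (1.77-fold, adjusted p = 4e-04). Ect2, which activates the small GTPase of the ring, had changes of 0.32 (adjusted p = 0.212) and 0.52 (adjusted p = 0.0196).

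**Figure D2:**
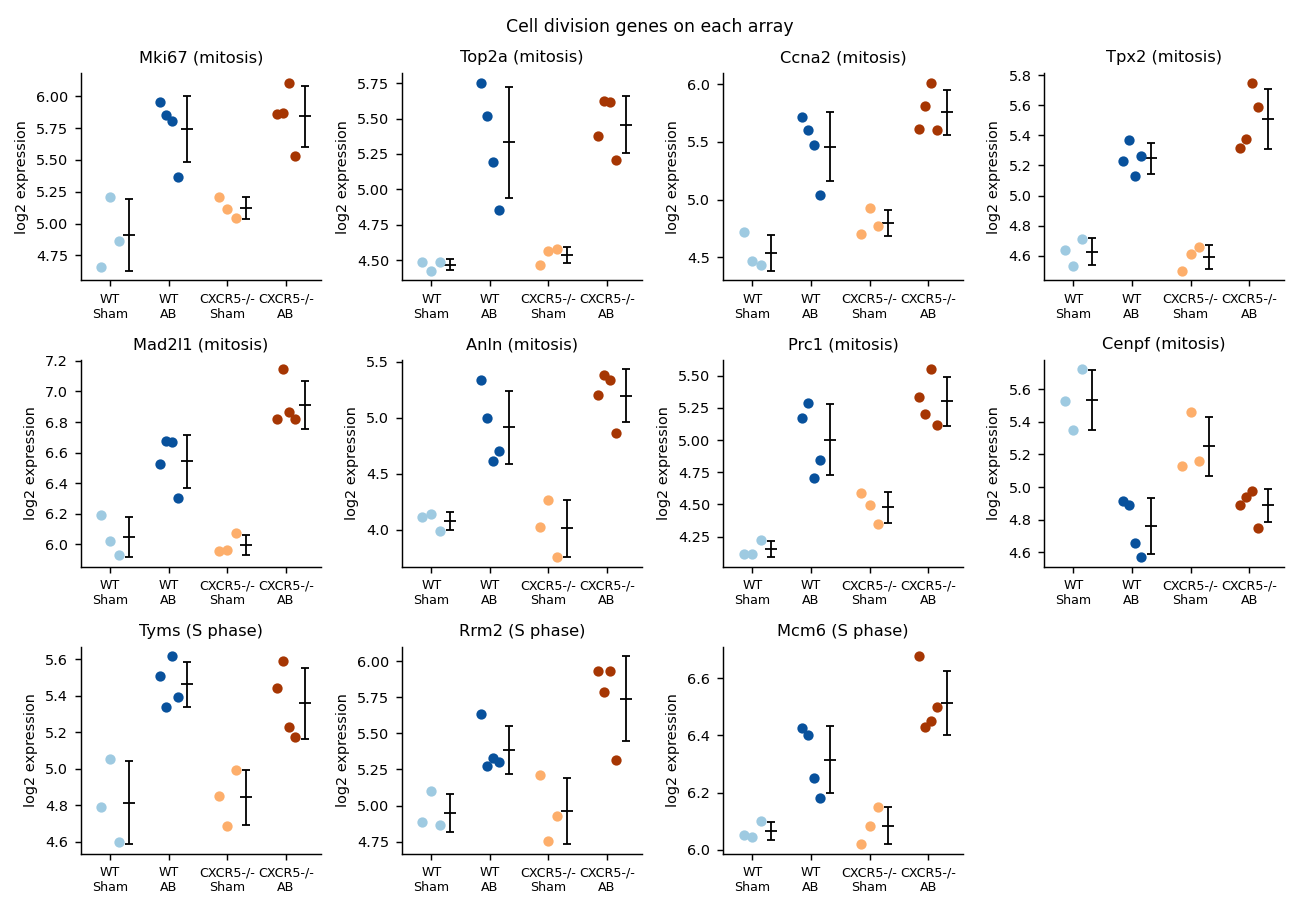
Log2 expression of 11 cell division genes on each array (points) with the group mean and SD (bars), with the 2 WT groups on the left of each panel and the 2 CXCR5-/- groups on the right, each panel with its own vertical scale that does not start at 0. AB arrays lie above Sham arrays in every panel but that of Cenpf, where they lie below, and WT AB replicate 4 is the lowest WT AB point for Mki67, Top2a, Ccna2 and Mad2l1.

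The S phase genes that passed make nucleotides or open the DNA. Tyms, thymidylate synthase, read 4.79, 5.05 and 4.60 in WT Sham and 5.51, 5.34, 5.62 and 5.39 in WT AB. Among CXCR5-/- mice the Sham arrays gave 4.85, 4.69 and 4.99 and the AB arrays 5.44, 5.59, 5.23 and 5.17. The lowest AB array lay above the highest Sham array. The log2 change was 0.65 ± 0.13 in WT (1.57-fold, adjusted p = 0.00285) and 0.51 ± 0.13 in CXCR5-/- hearts (1.43-fold, adjusted p = 0.00942), and without CXCR5-/- Sham replicate 2 the latter no longer passed (adjusted p = 0.0651). Rrm2, the small subunit of ribonucleotide reductase that limits its activity, read 4.89, 5.10 and 4.86 in WT Sham and 5.64, 5.28, 5.33 and 5.30 in WT AB. In CXCR5-/- hearts it read 5.21, 4.75 and 4.92 in Sham and 5.93, 5.79, 5.93 and 5.32 in AB. AB arrays were above Sham arrays throughout, with a gap of less than 0.1 between the nearest arrays. AB changed its log2 level by 0.44 ± 0.15 in WT (adjusted p = 0.0771) and 0.78 ± 0.15 in CXCR5-/- hearts (1.71-fold, adjusted p = 0.00148). Its partner Rrm1, the large subunit, had changes of 0.03 and 0.10.

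Of the 6 MCM helicase genes, Mcm6 alone passed. It read 6.05, 6.04 and 6.10 in WT Sham and 6.43, 6.40, 6.25 and 6.18 in WT AB. Its CXCR5-/- values were 6.02, 6.08 and 6.15 after Sham and 6.68, 6.43, 6.45 and 6.50 after AB. The Sham arrays of both genotypes overlapped each other and lay below every AB array. Its log2 change was 0.25 ± 0.09 in WT (adjusted p = 0.103) and 0.43 ± 0.09 in CXCR5-/- hearts (1.35-fold, adjusted p = 0.0034). The other MCM genes had log2 changes of 0.08 to 0.23 in WT and 0.06 to 0.34 in CXCR5-/- hearts. Pcna, the clamp of DNA polymerase, had changes of 0.29 and 0.31 that did not pass, and a second probe set gave 0.37 and 0.35. Pcna has near-identical pseudogenes, so its values are uncertain. Cdc6, which loads the helicase, had changes of 0.45 (adjusted p = 0.079) and 0.07 (adjusted p = 0.827), and the WT change was 0.18 without WT Sham replicate 3 and passed without WT Sham replicate 2 (0.62, adjusted p = 0.0255). Ccne2, cyclin E2, had changes of -0.04 and 0.20, and Cdc45, a part of the active helicase, of 0.02 and 0.05.

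Mitosis genes varied together among banded hearts. Averaged over the 28 genes, each first centred on its mean over the 14 arrays, the log2 level was 0.32, 0.25, 0.05 and -0.11 on WT AB replicates 1 to 4 and 0.25, 0.39, 0.37 and 0.15 on the CXCR5-/- AB replicates. The Sham arrays lay between -0.36 and -0.22, below every AB array, and WT AB replicate 4 came nearest to them. WT AB replicate 1 held the highest WT AB value of 21 of the 28 genes and replicate 4 the lowest of 20, Cenpf among them. The mean correlation between pairs of mitosis genes was 0.55 over the 8 AB arrays (0.53 after the group means were taken off) and 0.05 over the 6 Sham arrays, against 0.16 and 0.06 for S phase genes and 0.00 and 0.01 for all genes. These are descriptions over few arrays, which the genes share. Without WT AB replicate 4, 17 members were called in WT hearts in place of 14, and the median change of mitosis genes was 0.46 in place of 0.39. Leaving out CXCR5-/- AB replicate 4, an array outside that comparison, also gave 17 calls in WT. The count thus does not single out WT AB replicate 4.

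**Figure D3:**
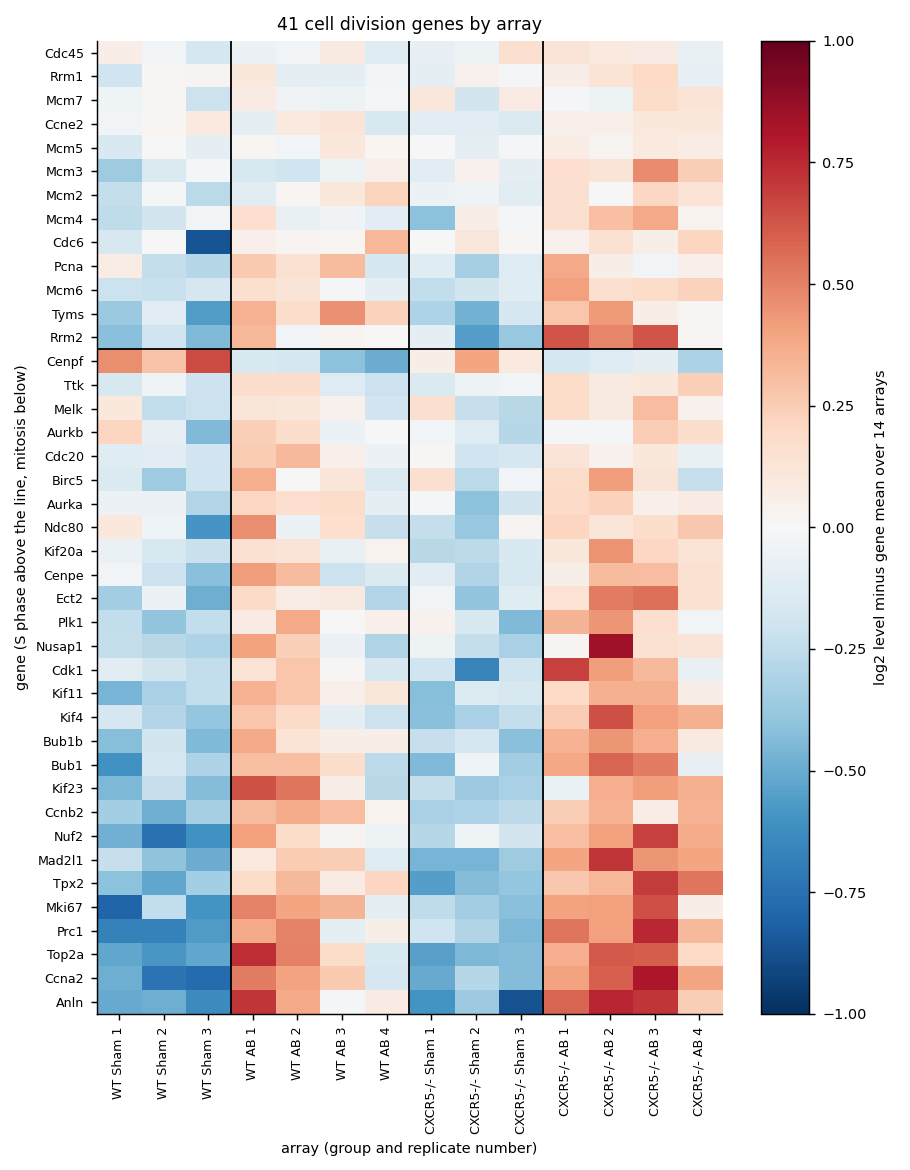
Log2 level of the 41 genes (rows, S phase above the line and mitosis below) on the 14 arrays (columns, in 4 groups), each minus the gene's mean over the arrays. Mitosis genes are above their mean (red) on most AB arrays and below it (blue) on the Sham arrays, with the bluest AB column at WT AB replicate 4 and the opposite colours for Cenpf.

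The next comparison asked whether CXCR5-/- hearts responded differently. No member passed in limma for the difference of the AB responses, and neither did any other gene on the array (0.0%). At an unadjusted p under 0.05 there were 3 members, Mad2l1, Kif4 and Cenpf, where 2.88% of all genes reached that level. The CXCR5-/- response of Mad2l1 exceeded the WT response by 0.42 on the log2 scale (95% interval 0.09 to 0.75, unadjusted p = 0.0156), that of Kif4 by 0.42 (0.05 to 0.78), and that of Cenpf, which fell less, by 0.41 (0.06 to 0.76). For most members the interval was wide, as for Ccna2 (-0.39 to 0.47) and Mki67 (-0.57 to 0.35), so a larger count of calls in CXCR5-/- hearts does not show a larger response.

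After AB no member passed between CXCR5-/- AB and WT AB (0.0451% of all genes passed). The log2 difference was above 0 for 37 of 41 members, with a median of 0.13 against 0.00 for all genes, and 10 members had an unadjusted p under 0.05, where 5.94% of all genes did. The smallest p was that of Mad2l1, higher in CXCR5-/- AB by 0.37 ± 0.10 (unadjusted p = 0.00218, adjusted p = 0.345). Mcm3, an MCM helicase subunit, followed, with 5.34, 5.30, 5.44 and 5.55 in WT AB and 5.66, 5.63, 5.97 and 5.74 in CXCR5-/- AB. Those groups did not overlap, and the difference was 0.34 ± 0.10 (unadjusted p = 0.00303, adjusted p = 0.39). Replicate 4 had the lowest mean of mitosis genes in both groups, at -0.11 in WT AB and 0.15 in CXCR5-/- AB, and in the latter it held the lowest value of 14 of the 28 genes.

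After Sham no member passed either (0.0401% of all genes passed), and 4 members had an unadjusted p under 0.05 (2.38% of all genes). Nuf2 had the smallest p, with 4.14, 3.87 and 4.01 in WT Sham and 4.33, 4.57 and 4.43 in CXCR5-/- Sham. Its groups did not overlap, and the difference was 0.44 (unadjusted p = 0.00334, adjusted p = 1). Cdc6 read 4.65, 4.81 and 3.94 in WT Sham and 4.80, 4.92 and 4.82 in CXCR5-/- Sham. WT Sham replicate 3 alone was low for Cdc6, and the difference was 0.38 (unadjusted p = 0.0315).

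The 3 Sham arrays with high Myl7 bear on the CXCR5-/- count. Without them 13 members were called in WT hearts and 6 in CXCR5-/- hearts, the latter with 1 Sham array left that was assumed to vary like the others. Those 6 were Anln, Bub1b, Ccna2, Mad2l1, Prc1 and Tpx2, and over all genes 8.17% and 4.23% were then called. The median change of mitosis genes was 0.56 without these arrays and 0.54 with them in CXCR5-/- hearts, and 0.40 and 0.39 in WT hearts. The part of atrial tissue in these results was not tested.

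Postn and Cd68, the markers of fibroblasts and macrophages, were also higher after AB than after Sham. Postn, periostin, secreted by activated fibroblasts, read 7.57, 7.51 and 7.52 in WT Sham and 10.77, 10.13, 10.28 and 10.50 in WT AB. The CXCR5-/- Sham arrays read 7.86, 7.87 and 7.60, and the CXCR5-/- AB arrays read 10.62, 10.75, 10.72 and 10.40. The AB arrays stood far above the Sham arrays, with log2 changes of 2.89 ± 0.13 and 2.85 ± 0.13. Cd68, a lysosomal protein of macrophages, read 6.95, 6.74 and 6.78 in WT Sham and 7.71, 7.66, 7.92 and 7.45 in WT AB. Among CXCR5-/- mice the Sham arrays gave 6.80, 6.77 and 6.65 and the AB arrays 7.50, 8.19, 7.67 and 7.96. It rose by 0.86 in WT (adjusted p = 0.000807) and by 1.09 in CXCR5-/- hearts (adjusted p = 5.53e-05).

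Many but not all of the other markers rose. Fibroblast markers rose in 6 of 10 cases in WT hearts and in 9 of 10 in CXCR5-/- hearts, and their mean centred level ran from -0.64 to -0.41 over all Sham arrays and from 0.12 to 0.61 over all AB arrays. Of 12 macrophage markers 6 and 9 rose, and their level ran from -0.49 to -0.17 and from 0.14 to 0.46. Ddr2 of the fibroblast list and Csf1r, Mrc1 and Mertk of the macrophage list passed in neither genotype. Without the 3 Sham arrays with high Myl7, 7 fibroblast and 5 macrophage markers rose in WT and 5 and 7 in CXCR5-/- hearts. Of 8 endothelial markers only Emcn rose, in both genotypes (12.5%), and this single gene is not read as a result about the list. Of 8 cardiomyocyte markers 2 fell in WT and 4 in CXCR5-/- hearts, Ryr2 by 0.63 and by 0.62 on the log2 scale. The other WT call, that of Atp2a2, was lost in 11 of the 14 fits that left out 1 array (adjusted p up to 0.157). Without these 3 arrays Emcn passed in neither genotype (adjusted p = 0.0513 and 0.195), and of the cardiomyocyte markers only Ryr2 passed. None of 7 lymphocyte markers and none of 3 erythroid markers passed. All markers of both rising lists were measured, none of them was at 0, and their part in the members' changes was not tested.

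Across arrays, each member was correlated with Postn and with Cd68 within the 8 AB and within the 6 Sham arrays, 164 relations in all. No pooled value over 14 arrays is given, because both markers split AB from Sham. In 6 relations the unadjusted exact permutation p was under 0.05 and in none the adjusted p, the smallest being 0.569 for Pearson's r and 0.753 for Spearman's rho. That smallest was Rrm1 with Postn over the AB arrays (r = 0.91, exact permutation p = 0.00347, rho = 0.88, p = 0.00724), and r was 0.93 without the 2 arrays farthest from the median of Postn. The other 5 also involved Postn. Over the AB arrays these were Bub1b (r = 0.83, exact permutation p = 0.0215, rho = 0.76, p = 0.0368), Mcm4 (r = 0.81, p = 0.0167, rho = 0.76, p = 0.0368), Rrm2 (r = 0.80, p = 0.0276, rho = 0.69, p = 0.0694) and Anln (r = 0.75, p = 0.0405, rho = 0.76, p = 0.0368), whose r was 0.92, 0.78, 0.75 and 0.91 without those 2 arrays. Over the Sham arrays it was Prc1 (r = 0.92, exact permutation p = 0.0181, rho = 0.89, p = 0.0333), with r = 0.62 without the 2 farthest arrays. Over the AB arrays 26 of 28 mitosis genes correlated positively with Postn, with a median r of 0.42, which was 0.59 without the 2 farthest arrays and 0.30 after the group means were taken off, and 49.3% of all genes did. With Cd68 24 of 28 were positive, with a median r of 0.22 that was 0.10 after the group means were taken off. S phase genes had a median r of 0.24 with Postn, which was 0.13 without the 2 farthest arrays and 0.04 after the group means were taken off, and of 0.05 with Cd68. The means of the classes stood in the other order, with r = 0.67 for S phase genes and 0.51 for mitosis genes with Postn over the AB arrays, and 0.57 and 0.35 after the group means were taken off, so no order of the classes is read from these values. Over the Sham arrays the median r of mitosis genes was 0.25 with Postn and 0.06 with Cd68, and that of S phase genes was 0.05 and -0.42. These genes share the arrays, so the counts are descriptions.

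**Figure D4:**
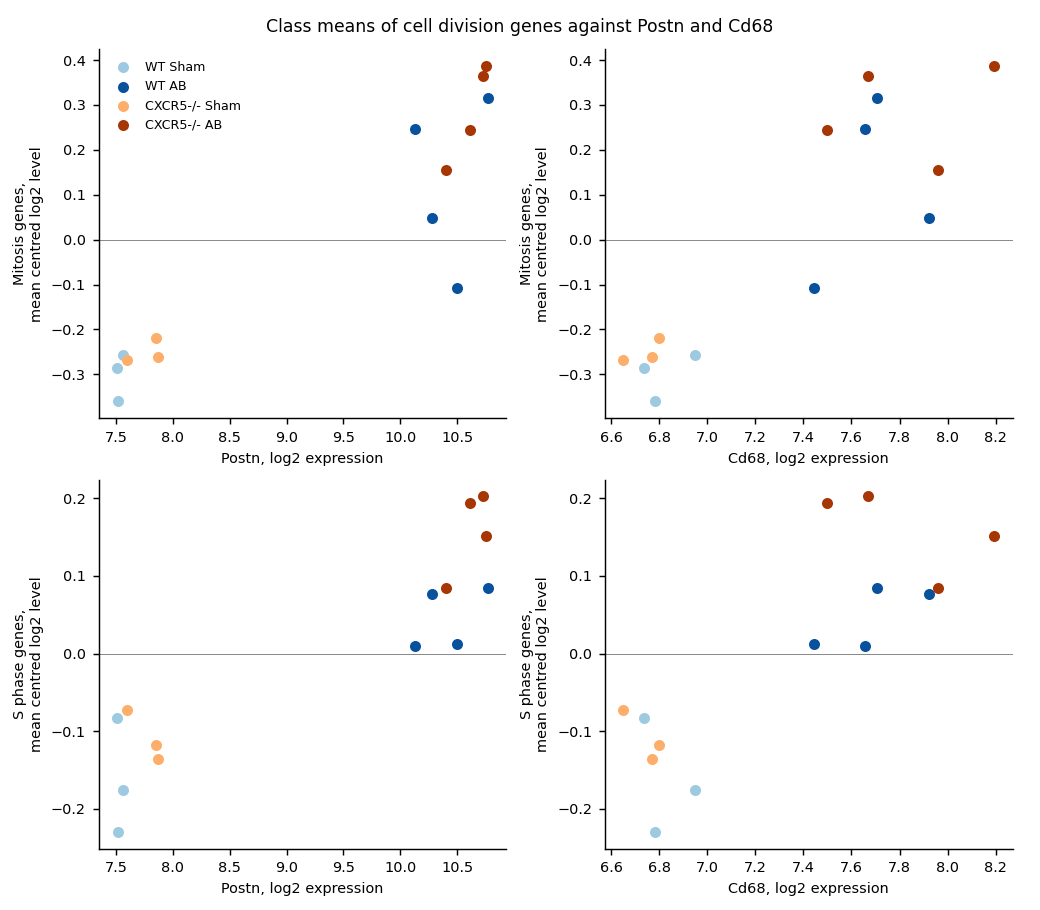
Mean centred log2 level of the 28 mitosis genes (top) and 13 S phase genes (bottom) on each array against log2 expression of Postn (left) and Cd68 (right), by group. Sham arrays lie at the lower left and AB arrays at the right, and WT AB replicate 4 is the lowest AB point for mitosis genes at a Postn level of 10.50.

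Other genes of the cell cycle, from lists that do not hold the members, were counted in the same way. Among 55 other mitosis genes there were 11 increases and 1 decrease in WT, and 18 increases and 1 decrease in CXCR5-/- hearts, with median log2 changes of 0.27 in both. These calls were 21.8% and 34.5% of the list, where 9.32% and 14.1% of all genes were called. Racgap1, which acts with Kif23 and Ect2 in the midzone, rose by 0.66 and 0.72 (adjusted p = 0.00148 and 4e-04), and Pbk, a mitotic kinase, by 0.53 and 0.69 (adjusted p = 0.00494 and 0.000363). Of 29 other S phase genes, 2 rose in WT (6.9%) and 4 in CXCR5-/- hearts (13.8%), with medians of 0.07 and 0.15. Over all genes 5.1% and 8.28% rose. Hells, a chromatin remodeller, rose by 0.53 and 0.60 (adjusted p = 0.00332 and 0.000837), and Prim1, the DNA primase subunit, by 0.51 and 0.71 (adjusted p = 0.0444 and 0.0039). The WT call of Prim1 was lost without any 1 of 9 arrays (adjusted p up to 0.223). Without the 3 Sham arrays with high Myl7, 4 other mitosis genes rose in WT, Racgap1 and Pbk among them, and 1 fell. These calls were 9.09% of the list, where 8.17% of all genes were called, so little excess was left. Of other S phase genes Hells and Prim1 rose in WT. Calls in CXCR5-/- hearts also became fewer, but 1 Sham array was left there, so only median changes are given. They were 0.34 for other mitosis genes, 0.23 for other S phase genes and 0.00 for all genes.

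Genes that govern entry into the cycle were counted against the 9.32% and 14.1% of all genes called in WT and CXCR5-/- hearts. Of 7 G1 cyclins and kinases, 1 rose in WT (14.3%) and 3 in CXCR5-/- hearts (42.9%), the latter Ccnd2, Ccnd1 and Cdk6. Ccnd2, cyclin D2, rose by 0.56 in WT and by 0.51 in CXCR5-/- hearts (adjusted p = 0.00665 and 0.00815), and Ccnd1 changed by 0.33 and rose by 0.39 (adjusted p = 0.0585 and 0.0175). Of 6 CDK inhibitors, 1 passed in each genotype (16.7%). Cdkn2b rose in WT (0.43, adjusted p = 0.0353), and its change of 0.17 in CXCR5-/- hearts did not pass. Cdkn1c fell in CXCR5-/- hearts (-0.37, adjusted p = 0.0415), and its change of -0.30 in WT did not pass. Of 20 regulators of the E2F, RB and MuvB families, 1 passed in WT and 3 in CXCR5-/- hearts. Lin52, a MuvB subunit, fell by 0.34 and by 0.40 on the log2 scale (adjusted p = 0.0409 and 0.0106). Tfdp2 fell and Rbl1 rose in CXCR5-/- hearts, each passing there alone, and no other passed. The change of Tfdp2 was -0.44 in WT and -0.50 in CXCR5-/- hearts, and it passed in WT with array weights and with Myl7 as a covariate. The WT call of Lin52 was lost without any 1 of 9 arrays (adjusted p up to 0.179). Without the 3 Sham arrays with high Myl7, none of these 3 lists had a call in CXCR5-/- hearts, and in WT Cdkn2b and Lin52 passed and Ccnd2 did not (adjusted p = 0.0601). None of these genes passed for the difference of responses, and their log2 differences lay between -0.31 and 0.27. For a difference of 0.5 that comparison had a recovery of only 0.5%, as given below. It therefore cannot decide whether the genotypes differed for these genes, and no conclusion is drawn.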

How the data were processed

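Left ventricles of male WT and CXCR5-/- mice were measured on Affymetrix mouse ST 1.0 arrays, 14 in all, and the sample labels gave each array its genotype and operation. The deposited log2 values per probe set came from the authors' robust multi-array average (RMA) step and were not changed. Its settings and version and the build of the probe annotation were not given in any source used here. The paper and the labels name different RNA kits. Replicates were separate mice, and the number of arrays limits the precision.

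The annotation paired 1 symbol with 21640 of 34760 probe sets, several symbols with 1321 and none with 11799; only the first kind named a gene, and 21553 of these matched RefSeq (GRCm38.p6). Where probe sets shared a gene (954 of 19937 genes), the one with the highest mean was read. The test was limma 3.58.1 under R 4.3.3, with lmFit and eBayes on 1 model of 4 group means (10 residual and 7.13 prior degrees of freedom). Adjusted p values are limma's after Benjamini-Hochberg over all 19937 genes, with a threshold of 0.05, and "rose" and "fell" refer to it. Significance analysis of microarrays, which the methods name with a false discovery rate of 0.05 for the genes of their networks and no other setting, was an alternative. The members and all lists were chosen with earlier results of these data known.

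Shown array by array were up to 6 members of each class with the smallest adjusted p in either AB comparison, Mki67 and Top2a, and the 2 members with the smallest p where none passed; from other lists, up to 3 genes that passed. Other members are named in their place within the class. Same-numbered arrays deviated together in every pair in CXCR5-/- AB against WT AB (r 0.125 to 0.22 across genes). Between genotypes after Sham r was also positive in every pair, at 0.45, 0.026 and 0.17. In AB against Sham the replicate 2 pairs gave -0.063 in WT and -0.11 in CXCR5-/- hearts. Whether the numbers pair the arrays rests on these correlations alone. The steps were tested on simulated data in which 200 genes among 19937 were altered: with a log2 change of 1, 99% were recovered for AB in either genotype and 93% for the difference of responses, and with 0.5, 57.5% in WT, 59% in CXCR5-/- hearts, 0.5% for the difference, 66% between genotypes after AB and 32% after Sham. In the data more genes were called for AB, 1858 in WT and 2818 in CXCR5-/- hearts, so the shares recovered for AB need not hold there. Alternatives covered the variance model, weights on arrays, removal of probe sets under the 30th percentile, other scaling, Myl7 as a covariate, fits without the high-Myl7 arrays, a block for replicate number and the removal of single arrays.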

Additional observations from a re-analysis of the deposited data

Results flagged for a closer look

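Of 82 sets of 4 AB arrays examined (41 genes in each genotype), 6 held 1 array far from the other 3 relative to the range, where chance gives about 4.1. In WT AB, Cdc6 read 5.14 on replicate 4 against 4.83 to 4.85 on the others, Aurka read 5.22 on replicate 4 against 5.48 to 5.52, and Rrm2 read 5.64 on replicate 1 against 5.28 to 5.33. In CXCR5-/- AB, Mad2l1 read 7.14 on replicate 2 against 6.82 to 6.87, Nusap1 read 4.84 on replicate 2 against 4.01 to 4.14, and Kif23 read 4.95 on replicate 1 against 5.38 to 5.44.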

How the results depend on the processing

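The median changes of both classes kept their direction under all alternatives run. The count of members called in CXCR5-/- hearts was 23, but 13 with Myl7 as a covariate and 6 without the 3 high-Myl7 Sham arrays, where fewer Sham arrays were left. With array weights 20 members were called in WT and 30 in CXCR5-/- hearts, and 1 member between genotypes after Sham in place of 0 (Nuf2). The filter on dim probe sets gave 14 and 20 calls, but it took Ccne2, Bub1, Ttk, Kif11, Kif4, Cenpe and Nusap1 out of the count. Of these, Kif11 had been called in WT, and Bub1, Kif11 and Kif4 in CXCR5-/- hearts. Significance analysis of microarrays gave 15 and 30 calls and was not run for the difference of responses. Apart from the fit without the high-Myl7 arrays, the share of all genes called is not given for these settings or for those below. A general gain or loss of calls therefore cannot be told from a change in the members by these counts.

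Leaving out 1 array at a time gave 12 to 17 calls in WT, with the lowest without WT Sham replicate 3, and 17 to 24 in CXCR5-/- hearts, with the lowest without CXCR5-/- AB replicate 2, and 0 to 0 in the other comparisons. Mitosis medians then ran from 0.34 to 0.46 in WT and from 0.49 to 0.57 in CXCR5-/- hearts, and S phase medians from 0.10 to 0.18 and from 0.19 to 0.24. In CXCR5-/- hearts the calls of Cenpf, Aurka, Plk1 and Kif23 were lost without any 1 of 10, 9, 7 and 6 arrays, and in WT that of Kif23 without any 1 of 5. The CXCR5-/- calls of Bub1 and Ect2 were lost without any 1 of 3 arrays. Of the other named genes, single arrays ended the CXCR5-/- calls of Cdkn1c (any of 7), Tfdp2 and Rbl1 (any of 4), Ccnd1 (any of 3), Cdk6 (any of 2) and Lin52 (CXCR5-/- Sham replicate 1), and the WT calls of Prim1 and Lin52 (any of 9), Cdkn2b (any of 3) and Emcn (WT Sham replicate 2). Of the cardiomyocyte markers, Atp2a2 lost its WT call without any 1 of 11 arrays and its CXCR5-/- call without any 1 of 3. Tnni3 lost its CXCR5-/- call without CXCR5-/- Sham replicate 1. With the replicate block 21 members were called in WT and 27 in CXCR5-/- hearts, with 0 in the other comparisons, including both comparisons between genotypes.

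The median r of S phase genes with Cd68 over AB arrays was 0.05 and turned to -0.019 without the 2 farthest arrays and to -0.076 for deviations from group means. Over Sham arrays, deviations gave -0.023 for mitosis and -0.19 for S phase genes with Postn, and mitosis genes with Cd68 had -0.086 for rho and -0.080 without the 2 farthest arrays. The cause was not tested. Most members are dim, which limits what small changes can be seen.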
